A study of Mus musculus with 3 samples.

Results

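Peaks of homocysteinylated lysine 79 of histone H3 (H3K79Hcy) were set against peaks of trimethylated lysine 4 of the same histone (H3K4me3). Members were chosen by the measured positions of the peaks, so that the division itself is a description and not a finding. Peaks that overlapped the list for homocysteinylated lysine in general (KHcy) were first removed from both lists, and each remaining list was divided into peaks that overlapped the other list by 1 bp or more and peaks that did not. The members were 24505 of the 34026 peaks in the series: 5829 peaks of H3K79Hcy alone, 533 H3K79Hcy peaks shared with H3K4me3, 527 H3K4me3 peaks shared with H3K79Hcy, and 17616 peaks of H3K4me3 alone. Chromatin came from NE4C, an established mouse neural stem cell line, grown in Eagle MEM on poly-L-lysine with no homocysteine thiolactone added. The genotype is that of the line for every library, and there was 1 library per antibody, so that no difference between antibodies has a replicate check and no p-value is given. The immunoglobulin control and the input were not analysed here.

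Homocysteine is a sulfur amino acid of the methionine and folate cycles, and its thiolactone can attach to the amino group of lysine, which gives homocysteinylated lysine. Lysine 79 lies on the face of the nucleosome and is also the residue that DOT1L methylates in transcribed genes. H3K4me3, written by SET1 and MLL complexes, is the classical mark of nucleosomes at the start of active genes and was included by the study as a mark of promoters.

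Windows of 200 bp from 4 peaks are given as examples of sequence, each taken from the first peak of its rank. Being extremes of rank, these windows do not stand for their groups. They are the plus strand of mm9, with each CpG dinucleotide in capitals. The window near Actr3 (chr1:126877401-126877600) is the H3K79Hcy peak without H3K4me3 of largest fold over background, and that of 1700013D24Rik (chr6:124307004-124307203) surrounds the gene start under the H3K79Hcy peak without H3K4me3 of largest score at a start. The window of Susd5 (chr9:113966372-113966571) surrounds the start of a gene at a shared locus. The window of Gm4868 (chr5:126329010-126329209) surrounds the start under the H3K4me3 peak without H3K79Hcy of largest score at a start.
Actr3, H3K79Hcy alone: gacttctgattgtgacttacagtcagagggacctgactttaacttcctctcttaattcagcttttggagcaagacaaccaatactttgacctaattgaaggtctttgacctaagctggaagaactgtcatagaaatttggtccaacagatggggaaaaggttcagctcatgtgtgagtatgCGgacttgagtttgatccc
1700013D24Rik, H3K79Hcy alone: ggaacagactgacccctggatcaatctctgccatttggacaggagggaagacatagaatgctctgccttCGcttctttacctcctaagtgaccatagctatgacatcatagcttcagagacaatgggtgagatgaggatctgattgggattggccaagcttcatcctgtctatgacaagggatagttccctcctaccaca
Susd5, shared: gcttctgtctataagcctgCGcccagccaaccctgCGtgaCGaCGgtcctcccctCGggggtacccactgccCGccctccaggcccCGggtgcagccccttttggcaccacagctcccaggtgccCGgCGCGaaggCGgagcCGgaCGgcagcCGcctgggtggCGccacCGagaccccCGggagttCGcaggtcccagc
Gm4868, H3K4me3 alone: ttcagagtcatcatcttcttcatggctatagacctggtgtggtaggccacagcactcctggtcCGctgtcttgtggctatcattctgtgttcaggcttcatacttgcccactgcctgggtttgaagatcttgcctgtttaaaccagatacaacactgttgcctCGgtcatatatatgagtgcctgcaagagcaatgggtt
The Susd5 window held 18 CpG dinucleotides at a GC content of 73.0%, the Gm4868 window 2, and the windows of H3K79Hcy alone 1 each. Over all shared H3K79Hcy peaks the median GC content was 42.1%, and 2.06% covered a gene start.

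The H3K79Hcy peaks held 209335 reads over 8.76 Mb and the H3K4me3 peaks 787308 reads over 41.2 Mb. The background, derived from 1-window peaks and their scores, was 1.59 and 1.38 reads per 200 bp, respectively, and fold is the reads per 200 bp of a peak divided by this background. Total reads were not given for either library. The lists also began at different scores. The lowest was 14.5 for H3K79Hcy and 18.4 for H3K4me3, where the score is a negative natural log of a Poisson probability, and 71.6% of the peaks of H3K79Hcy alone scored under the lowest H3K4me3 peak. As a check of the labelled cell type, 4 of 11 neural stem cell markers (Nes, Sox2, Notch1 and Prom1) had an H3K4me3 peak in the gene, with that of Nes at its start. None of 4 astrocyte, 4 oligodendrocyte and 3 microglial markers had a peak in any group, whereas the neuronal marker Rbfox3, the pluripotency markers Zfp42 and Pou5f1 and the fibroblast marker Col1a1 had 1 or more. Over all protein-coding genes 18.6% had a peak of H3K4me3 alone in the gene, so that these few markers say little about the cell type.

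Removal of peaks that overlapped KHcy took away 1025 H3K79Hcy peaks (13.9%, 95% Wilson interval 13.1 to 14.7%) and 1196 H3K4me3 peaks (6.18%, 5.85 to 6.53%). Of the removed H3K79Hcy peaks, 546 (53.3%) overlapped an H3K4me3 peak. Among the 6362 that were left, 533 did so (8.38%, 7.72 to 9.08%). Among the 18143 H3K4me3 peaks that were left, 527 (2.9%, 2.67 to 3.16%) overlapped an H3K79Hcy peak. Intervals cover counting error only. A further 59 peaks of H3K79Hcy alone touched an H3K4me3 peak that had been removed. The smallest overlap seen was 200 bp, in 49 H3K79Hcy peaks with a median fold of 2.83. Some of these peaks were themselves 200 bp long and lay wholly inside their partner, so not all were at the limit of the rule. A total of 38 peaks of H3K79Hcy alone lay directly against an H3K4me3 peak, with a median fold of 2.56. An H3K4me3 peak lay within 10 kb of 21.2% of the peaks of H3K79Hcy alone and within 50 kb of 53.3% of them.

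Shared peaks were intermediate between both unshared groups in median GC content. The median GC content was 40.2% in H3K79Hcy alone, 42.1% in the shared H3K79Hcy peaks, 42.6% in the shared H3K4me3 peaks and 45.1% in H3K4me3 alone. CpG dinucleotides, which are depleted from most of the mouse genome but kept in CpG islands, were at 0.145, 0.150, 0.160 and 0.189 of the frequency that the bases would give. The interval of the CpG median of the shared H3K79Hcy peaks, 0.139 to 0.159, held the value of H3K79Hcy alone. Peaks with more than 0.6 of the expected CpG frequency made up 0.360% of H3K79Hcy alone (0.236 to 0.550%) and 4.73% of H3K4me3 alone (4.42 to 5.05%). They made up 4.32% of the shared H3K79Hcy peaks (2.89 to 6.39%) and 3.61% of the shared H3K4me3 peaks (2.32 to 5.56%). The intervals of both shared sets held the share of H3K4me3 alone. For single chromosomes with 20 or more peaks in both groups, the median GC content of H3K4me3 alone was above that of H3K79Hcy alone in 15 of 15 chromosomes, by 0.977 to 6.48 percentage points. Within the bins of 1 Mb that held both unshared groups, the medians were 40.5% and 45.04%.

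Widths differed more by antibody than by sharing. The lists began at unlike scores, 14.5 for H3K79Hcy and 18.4 for H3K4me3, and the part of this in the widths was not tested. The median width was 1000 bp in both groups of H3K79Hcy peaks, 2000 bp in the shared H3K4me3 peaks and 1800 bp in H3K4me3 alone. The widest peak was 4000 bp for H3K79Hcy alone and 30400 bp for H3K4me3 alone, and 8.92% of the shared H3K4me3 peaks exceeded 4 kb, compared with 4.30% of H3K4me3 alone. Wider peaks have more room to overlap, so the widths of the shared groups are not independent of the rule. Median folds lay close together, at 2.64 for H3K79Hcy alone, 2.76 and 2.67 for the shared peaks of H3K79Hcy and H3K4me3, and 2.59 for H3K4me3 alone. The corresponding reads per 200 bp were 4.2, 4.4, 3.69 and 3.57. Median scores were 16.7, 17.4, 28.5 and 24.3, and the score, being a sum over windows, grows with width.

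**Figure D1:**
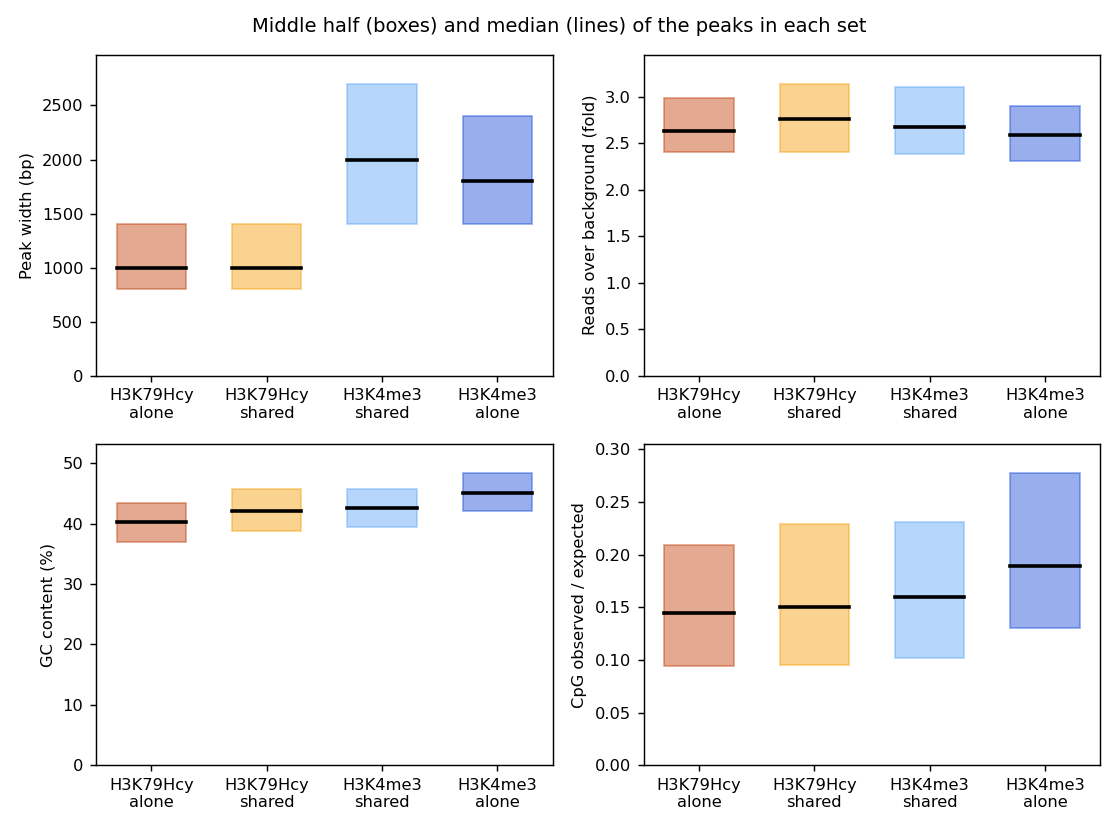
Width in bp, fold over the background of the library, GC content in percent and the ratio of observed to expected CpG for the peaks of each set. Boxes span the 25th to the 75th percentile and the black line is the median, which for GC content rises from 40.2% in H3K79Hcy alone to 45.1% in H3K4me3 alone.

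The share of peaks that overlapped the other list moved in opposite directions with GC content, when each list was divided by it into 4 classes of equal size. In the H3K79Hcy list it was 4.84% (3.89 to 6.01%) in the class of lowest GC content and 13.6% (11.98 to 15.3%) in the class of highest. In the H3K4me3 list it was 5.25% (4.64 to 5.93%) in the lowest class and 1.57% (1.24 to 1.97%) in the highest. The intervals of the lowest and highest classes did not overlap in either list. The classes were cut in each list separately, and overlapping peaks share bases. In H3K79Hcy alone the 75th percentile of GC content was 43.4%, and in H3K4me3 alone the 25th percentile was 42.05%. The opposite directions therefore restate the group medians and are not a second result. Distance to the start of a protein-coding gene divided the H3K79Hcy list as well. Within 1 kb of a start lay the centres of 8.10% of H3K4me3 alone and 1.06% of H3K79Hcy alone. The division by distance is therefore not independent of where the H3K4me3 peaks lie. Of 48 H3K79Hcy peaks that covered a start, 11 were shared (22.9%, 13.3 to 36.5%), whereas of 2689 peaks centred over 100 kb away 147 were shared (5.47%, 4.67 to 6.39%). Of the 1001 H3K4me3 peaks that covered a start, 18 were shared (1.798%, 1.14 to 2.82%), compared with 2.86% (2.45 to 3.35%) of those over 100 kb away. The density of KHcy peaks in the surrounding 5 Mb moved with sharing too, from 1.46% of H3K4me3 peaks in the class of lowest density to 6.15% in the class of highest, and its part in the result was not tested.

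**Figure D2:**
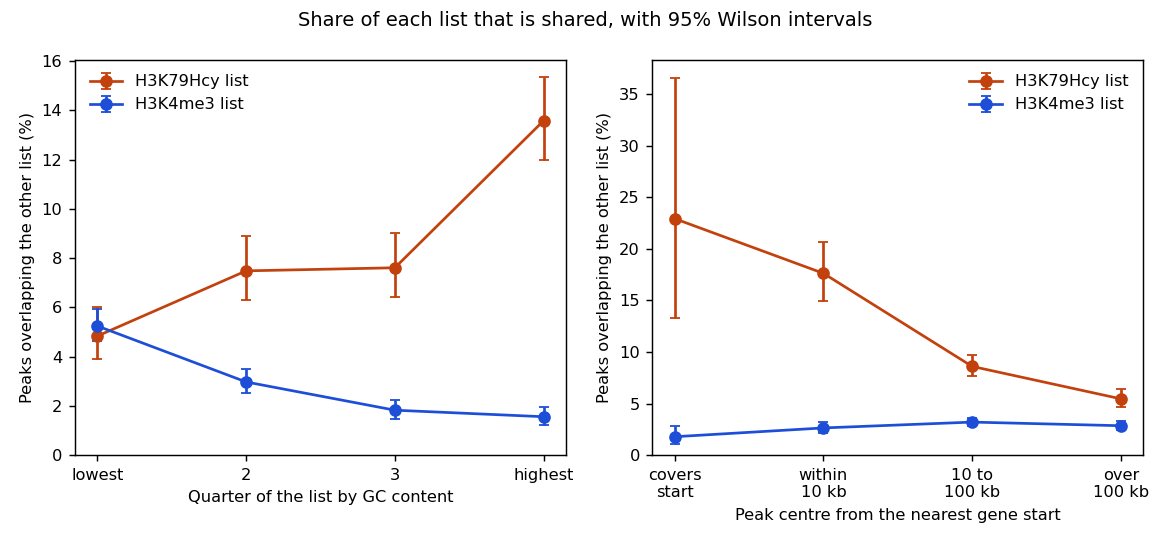
Percent of the H3K79Hcy list (orange) and of the H3K4me3 list (blue) that overlapped the other list, by class of GC content (left) and by the place of the peak relative to the nearest protein-coding gene start (right), with 95% Wilson intervals. The H3K79Hcy share rises with GC content from 4.84 to 13.6% and the H3K4me3 share falls from 5.25 to 1.57%. Classes of GC content were cut in each list separately, so the same class stands for different GC content in the lists.

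The centres of H3K4me3 alone were denser close to gene starts than farther away, and those of H3K79Hcy alone were not. Most peaks of H3K4me3 alone still lay away from starts, with 28.7% centred within 10 kb and 28.9% over 100 kb away. They were also wider than those of H3K79Hcy alone, with medians of 1800 against 1000 bp. Wider peaks have more room to cover a start. A start lay inside 983 peaks of H3K4me3 alone (5.58%, 5.25 to 5.93%) and inside 37 peaks of H3K79Hcy alone (0.635%, 0.461 to 0.874%). For the shared loci it lay inside 11 H3K79Hcy peaks (2.06%, 1.16 to 3.66%) and 18 H3K4me3 peaks (3.42%, 2.17 to 5.33%). With peaks that overlapped KHcy kept, these shares were 3.78% and 6.08%, and that of H3K4me3 alone was 5.69%, so the order of both H3K4me3 groups turned. The first kb downstream of starts held the centres of 5.48% of the peaks of H3K4me3 alone, and the kb from 2 to 3 kb upstream 1.07%. For H3K79Hcy alone the same bins held 0.618% and 0.463%. The median distance from the centre of a peak to the nearest start was 75.6 kb in H3K79Hcy alone, 33.1 kb and 34.2 kb in the shared H3K79Hcy and H3K4me3 peaks, and 34.7 kb in H3K4me3 alone. The interval of the median of the shared H3K79Hcy peaks, 29.3 to 40.5 kb, held the median of H3K4me3 alone and not that of H3K79Hcy alone. Both shared sets mark the same loci, so that the closeness of their medians follows from the rule. Peaks of H3K79Hcy alone were farther from starts than those of H3K4me3 alone in 13 of 15 chromosomes. Introns held the centres of 38.0% of the peaks of H3K79Hcy alone, 27.2% of the shared H3K79Hcy peaks and 33.8% of H3K4me3 alone, and the space between genes held 57.7%, 66.6% and 56.7%.

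**Figure D3:**
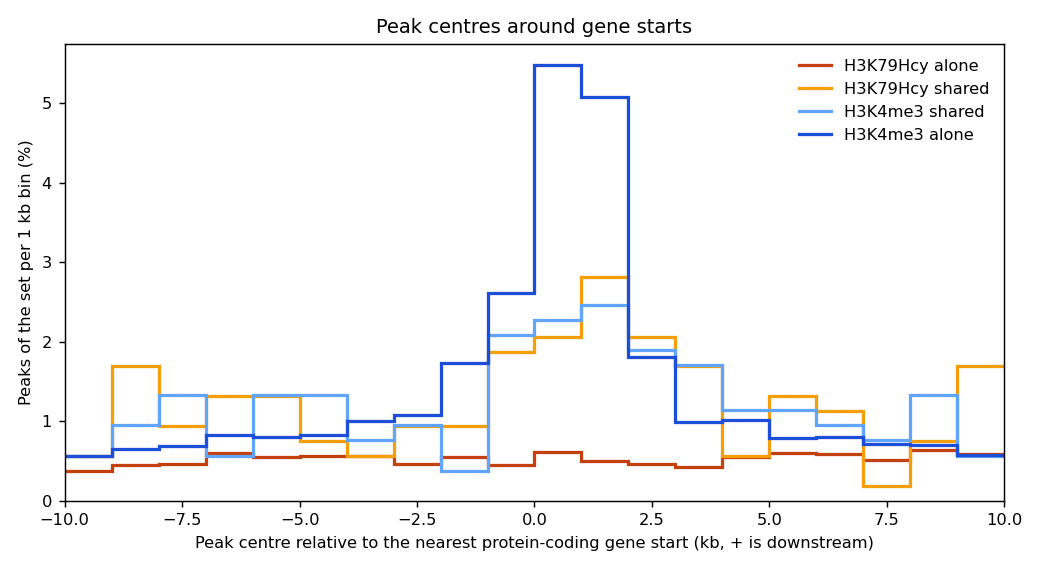
Percent of the peaks of each set whose centre fell in each 1 kb bin from 10 kb upstream to 10 kb downstream of the nearest protein-coding gene start. H3K4me3 alone reaches 5.48% in the first kb downstream, whereas H3K79Hcy alone stays near its level at all distances, with 0.618% in that bin.

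The 10 shared loci of largest score at gene starts were at Susd5, Ddx19a (an RNA helicase), Yipf2 with the adjacent 1810026J23Rik, Tmem69, Speer4e, Mrpl15 (a protein of the mitochondrial ribosome), Slc34a2 (a phosphate transporter), Rad18 (a ubiquitin ligase of DNA damage tolerance), Prex2 and Mcm10 (a replication factor). At Susd5 the H3K79Hcy peak (chr9:113966201-113967800) held 35 reads at a fold of 2.75 and the H3K4me3 peak 40 reads at a fold of 2.07. At Ddx19a (chr8:113521001-113522200) they held 31 and 29 reads at folds of 3.24 and 5.25. At Mcm10 (chr2:4933601-4934600) they held 19 and 29 reads at folds of 2.39 and 3.00. Over the 10 starts the H3K79Hcy peaks had folds of 2.26 (Rad18) to 3.98 (Speer4e and Mrpl15). Speer4e belongs to a family of near-identical copies, and 54.7% of the 31-base words at the centre of its peak occur elsewhere in the genome, so its reads cannot be placed with certainty.

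Among the shared loci the 2 H3K4me3 peaks of largest score at starts lay at Hoxb4 and Hoxd13, which belong to the Hox genes, transcription factors that set position along the body axis (Hox genes were picked after these values had been seen). At Hoxb4 the H3K4me3 peak held 91 reads at a fold of 3.00 and the H3K79Hcy peak 27 reads at 2.42. At Hoxd13 the values were 76 reads at 2.90 and 21 reads at 2.64, and at Hoxc8 43 reads at 3.11 and 20 reads at 2.51. Of 40 Hox gene records, 5 had a shared peak in the gene (Hoxd13, Hoxb4, Hoxb3, Hoxc8 and Hoxc6), 26 had a peak of H3K4me3 alone and 1, Hoxb6, had a peak of H3K79Hcy alone. Over all protein-coding genes the shares with such peaks in the gene were 0.693%, 18.6% and 6.78%.

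At starts with H3K4me3 alone, the largest scores belonged to long peaks over Gm4868 (chr5:126328801-126344800, 16000 bp, 339 reads), Hoxc9 (11600 bp, 242 reads), Tmem132b (7800 bp, 185 reads) and Klrb1a, a natural killer cell receptor gene (7200 bp, 173 reads). The other 6 were Tbx3, Lbx1, Evx2 and Sp9, which encode developmental transcription factors, Fosl1 (a subunit of AP-1) and Glp1r (the receptor of glucagon-like peptide 1). Their folds ran from 2.59 (Tbx3) to 3.48 (Klrb1a). At starts with H3K79Hcy alone the peaks were shorter, with 20 reads (Tas2r125) to 47 reads (1700013D24Rik). They lay at 1700013D24Rik, the olfactory receptor Olfr984, Qsox1 (a sulfhydryl oxidase), Pcbd1, the bitter taste receptor Tas2r125, the scavenger receptor Marco, Dhrs13, Ciz1, 2610017I09Rik and the histone gene Hist2h4. The fold was 2.68 at 1700013D24Rik, 1.93 at Olfr984 and 4.19 at Tas2r125. Hist2h4 is a member of a multigene family, but no 31-base word at the centre of its peak occurs elsewhere in the genome.

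At the 540 pairs of overlapping peaks, which formed 520 loci, the H3K79Hcy peak was often the inner one. It lay wholly inside the H3K4me3 peak in 289 pairs (53.5%), and the reverse held in 40 pairs. The median overlap was 800 bp, which was 100% of the H3K79Hcy peak and 40% of the H3K4me3 peak, with centres 500 bp apart. The shared H3K79Hcy peaks were also narrower, with medians of 1000 against 2000 bp, so these counts and shares are not independent of width. The fold was higher in the H3K79Hcy library in 260 of the 540 pairs. Across pairs, Spearman's rho of the folds was 0.235. It was 0.0970 over the 508 pairs in which neither fold exceeded 5, which left out the pairs of high fold. All points share the same cells and the background of each library, and the pairs are not independent replicates.

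**Figure D4:**
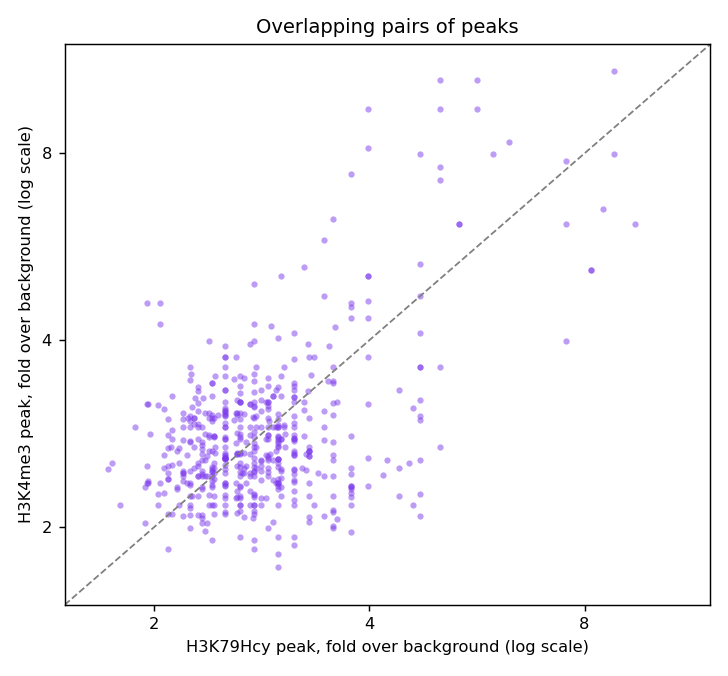
Fold over background of the H3K79Hcy peak (horizontal, log scale) and of the H3K4me3 peak (vertical, log scale) at the 540 pairs of overlapping peaks, with the line of equality dashed. The 18 pairs above 5 in both libraries lie at the upper right, while most other points form 1 cloud around the medians of 2.76 and 2.69.

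Peaks of high fold were short and lay in repeated sequence more often than other peaks of the same set. Their shortness follows in part from the cut-off of the lists. The fewest reads of any H3K79Hcy peak were 12, which in a single window of 200 bp is a fold of 7.54. Every H3K79Hcy peak of 1 window therefore ranks high by fold. Of the shared H3K79Hcy peaks, 21 of 533 (3.94%, 2.59 to 5.95%) had a fold above 5, compared with 34 of 5829 (0.583%, 0.418 to 0.814%) of H3K79Hcy alone. In 12 of these 21, more than 50% of the 31-base words at the centre occurred elsewhere in the genome, as in 4 of the 34 without H3K4me3. The same held for 40 of the 512 shared H3K79Hcy peaks of lower fold (7.81%) and for 103 of the 5795 peaks of H3K79Hcy alone of lower fold (1.78%). In H3K4me3 alone it held for 25 of the 66 peaks of fold above 5 (37.9%) and for 4.46% of the others. In the 5 shared H3K79Hcy peaks of largest fold, 38.8 to 88.2% of the words were repeated. One of them lay at Gm11167 (chr9:3021201-3021400), where 84.7% of the words were repeated and the folds were 8.79 for H3K79Hcy and 10.9 for H3K4me3. Others were near 4930572O03Rik, Gm17535 and Gm4981, with H3K79Hcy folds of 8.79, 8.48 and 8.16.
In H3K79Hcy alone the largest was the window 455 kb downstream of the start of Actr3, with 13 reads at a fold of 8.16 and with no repeated word. The 4 next, nearest to 4930572O03Rik, Gm13318, Snrpn and Api5, had 12 reads each at a fold of 7.54, and 67.6%, 0%, 75.9% and 0% of their words were repeated. For H3K4me3 the largest folds were 13.0 in the unshared group (near B230307C23Rik) and 10.9 in the shared group. Over all peaks, more than 50% of the words were repeated in 1.84% of H3K79Hcy alone, 9.76% of shared H3K79Hcy, 12.7% of shared H3K4me3 and 4.58% of H3K4me3 alone.

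Along the genome, chromosomes 1, 2, 5 and 6 were among the 5 with most peaks for both H3K79Hcy alone and H3K4me3 alone, in a different order. Chromosome 1 held 1093 peaks of H3K79Hcy alone (18.8%) and chromosome 6 held 848 (14.5%), while the largest number of H3K4me3 alone was on chromosome 5, with 3243 (18.4%). The shared H3K79Hcy peaks were most numerous on chromosome 6, with 123 (23.1%), and chromosome 5, with 86 (16.1%). Of the H3K79Hcy peaks, 2.95% (1.69 to 5.08%) were shared on chromosome 10, 5.53% (4.36 to 7.002%) on chromosome 1 and 17.3% (12.7 to 23.3%) on chromosome 8. Chromosomes 12, 13, 14, 16, 18 and X held at most 25 peaks of H3K79Hcy alone each, with 16 (X) to 186 (chromosome 12) of H3K4me3 alone. Of 2649 bins of 1 Mb, 1259 (47.5%) held a peak of H3K79Hcy alone, 1632 (61.6%) one of H3K4me3 alone, and 1086 held both.

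**Figure D5:**
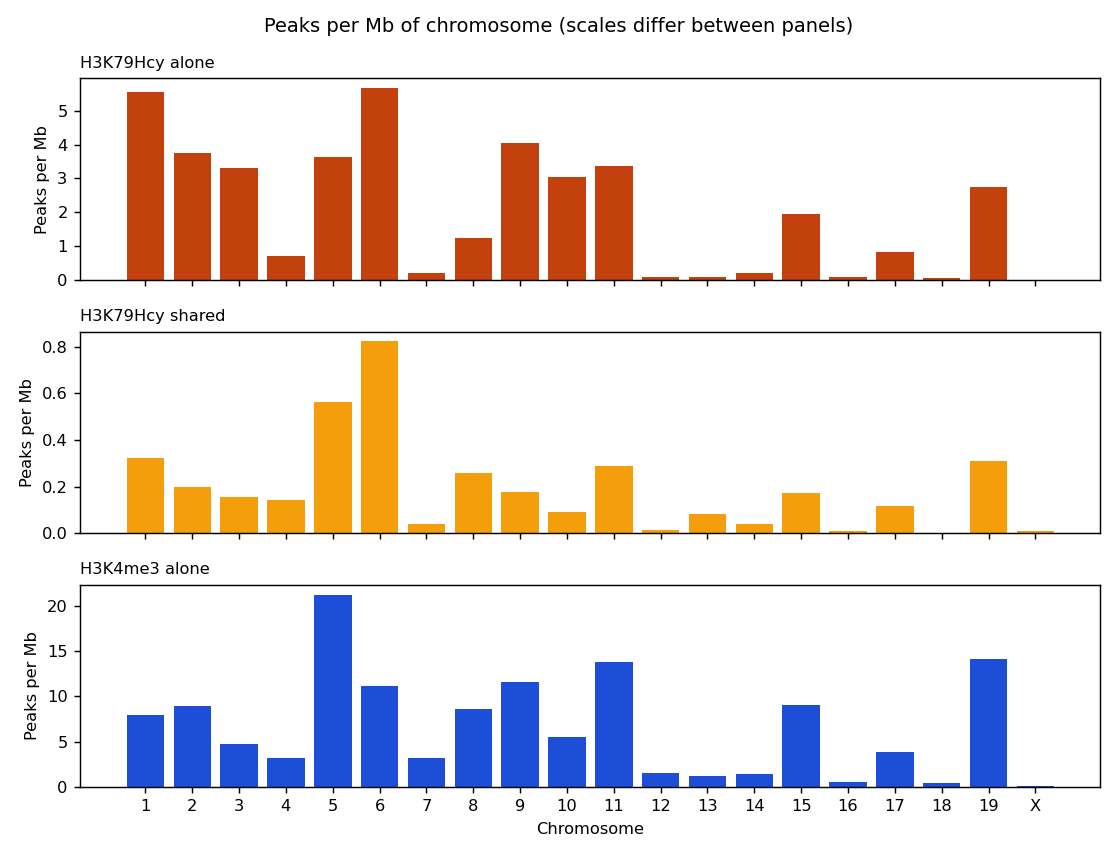
Peaks per Mb of each chromosome for H3K79Hcy alone (top), shared H3K79Hcy (middle) and H3K4me3 alone (bottom), with a separate vertical scale for each panel. H3K79Hcy alone is densest on chromosomes 1 and 6 and H3K4me3 alone on chromosome 5, with 3243 peaks.

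Some bins held 1 group almost exclusively (bins and their genes were picked after their values had been seen). The bin from 127 to 128 Mb of chromosome 5 held 205 peaks of H3K4me3 alone, which covered 74.1% of its bases, and 0 peaks of the other groups. Tmem132c, a transmembrane protein gene, lies there. From 121 to 122 Mb of chromosome 8, 182 peaks of H3K4me3 alone lay in Cdh13, which encodes T-cadherin. The fullest bin of H3K79Hcy alone, from 141 to 142 Mb of chromosome 6, held 37 such peaks around Pde3a and the organic anion transporters Slco1a4, Slco1c1 and Slco1a1, along with 9 peaks of H3K4me3 alone. The fullest bin of shared H3K79Hcy peaks, from 114 to 115 Mb of chromosome 8, held 16, together with 24 of H3K79Hcy alone and 40 of H3K4me3 alone, and none of the 16 lay in a protein-coding gene.

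Of the 22380 protein-coding genes, 1517 (6.78%) had a peak of H3K79Hcy alone in the gene body, 155 (0.693%) a shared peak and 4167 (18.6%) a peak of H3K4me3 alone. The starts of 37 (0.165%), 22 (0.0983%) and 1078 (4.82%) genes lay inside a peak of these groups. Genes with a peak were long, with medians of 79.4, 51.8 and 31.4 kb against 15.4 kb over all genes, and long genes offer more room for a peak. Genes with both unshared marks numbered 768, which was 50.6% of the genes with H3K79Hcy alone and 18.4% of those with H3K4me3 alone.

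The genes with the most peaks of H3K79Hcy alone were Sntg1 (25 peaks over 938 kb), Kcnq5 (17), A830018L16Rik (16), Bai3 (16), Cntnap4 (15) and Pkhd1 (15). Sntg1 encodes a syntrophin, Kcnq5 a potassium channel, Bai3 an adhesion receptor, Cntnap4 a neuronal adhesion protein and Pkhd1 fibrocystin. Every one of these peaks was centred in an intron, and in Sntg1 the folds ran from 2.15 to 4.396 around a median of 2.76. These genes held 1 (Bai3) to 16 (Cntnap4) peaks of H3K4me3 alone, with 8 in Sntg1. Genes with many shared H3K79Hcy peaks included Ano2 (5), a calcium-activated chloride channel, and Slc15a5 (4). Hoxc6, Lmo3 and Ifltd1 had 3 each, of which Hoxc6 is the shortest at 13.6 kb.
The genes with the most peaks of H3K4me3 alone were Cdh13 (223 peaks over 1041 kb), Tmem132d (132), Sdk1 (95), an adhesion protein of the immunoglobulin family, Wwox (72), Tmem132c (69) and Ano2 (53). No H3K79Hcy peak lay in Cdh13 in the whole list, KHcy overlaps included. Of its 223 peaks, 222 were centred in introns.

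The genes that the study followed, Cecr2 and Smarca4 (chromatin remodelling) and Dnmt3b (a DNA methyltransferase), had no shared peak. Neither had Smurf2 (a ubiquitin ligase), which the study showed as an example region. Peaks that overlapped KHcy had been removed, and counts in the whole lists are not given for these genes. Cecr2 had 4 peaks of H3K79Hcy alone, with 17 to 23 reads at folds of 2.64, 2.98, 3.56 and 3.61, and none of H3K4me3 alone. Dnmt3b had 1 (chr2:153497201-153497800, 17 reads, fold 3.56) and Smarca4 had 1 (chr9:21463601-21464400, 21 reads, fold 3.30), again with none of H3K4me3 alone. Smurf2 had 1 of each, which lay apart: H3K79Hcy at chr11:106689801-106691200 with 27 reads at a fold of 2.42, and H3K4me3 at chr11:106779801-106781200 with 27 reads at 2.79. All of these peaks were in introns. The study chose these genes on these libraries, so that their peaks are not independent evidence.

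Among 30 genes needed for closure of the neural tube, 8 had a peak of H3K79Hcy alone (26.7%) and 9 a peak of H3K4me3 alone (30%). The 8 were Cobl, Pax3, Cecr2, Smarca4, Fzd3, Enah, Lrp6 and Dnmt3b, and the largest H3K4me3 scores of the list were at Pax3, Dvl2, Rara and Shroom3. Without Cecr2, Smarca4 and Dnmt3b the share was 5 of 27 (18.5%), and the median length of the 30 genes was 42.7 kb. None of the 30 had a shared peak or a peak at the start. Over all genes 0.693% had a shared peak, and 4.82% had H3K4me3 alone and 0.165% H3K79Hcy alone at the start. Long synaptic and adhesion genes, with a median of 1106 kb, had H3K79Hcy alone in 14 of 29 gene records (48.3%) from 26 names. Among them were Lrp1b (8 peaks), Cntn4 (13), Opcml (2) and Cntn5 (4), and H3K4me3 alone was in 11 records (37.9%). Axon guidance genes, at 206 kb, had H3K79Hcy alone in 10 of 33 gene records (30.3%) from 32 names, led by Epha5, Slit2, Slit1 and Unc5c. They had H3K4me3 alone in 9 records (27.3%), led by Nrp2, Epha4, Ntn1 and Slit2. These shares stand beside 6.78% and 18.6% over all genes, whose median length was 15.4 kb.

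The transcription factors of neural development were mostly short genes, with a median of 5.87 kb. Of 37, 18 had H3K4me3 alone (48.6%, against 18.6% over all genes) and 2, Emx1 and Lhx2, had H3K79Hcy alone (5.41%, near the 6.78% over all genes). Lhx5, Meis1, Pax2 and Six3 had the highest H3K4me3 scores. The peaks covered the starts of Lhx5, Meis1, Six3, Neurog2 and Sox9 (13.5%, against 4.82% over all genes). Otx1 and Dlx2 had a shared peak. The H3K79Hcy peak of Emx1 covered its start.
The counts that follow stand beside 18.6% of all genes with H3K4me3 alone, 6.78% with H3K79Hcy alone and 0.693% with a shared peak in the gene. At the start these shares were 4.82%, 0.165% and 0.0983%. Among 16 genes for writing, reading or removing H3K4 methylation, 5 had H3K4me3 alone (Wdr5, Mll1, Men1, Mll2 and Setd1b) and 2 had H3K79Hcy alone (Kdm1a and Kdm5a, both demethylases). Of 12 genes of H3K79 methylation and elongation, 5 had H3K4me3 alone, 2 had H3K79Hcy alone (Aff4 and Supt6h) and 1, Aff1, a shared peak. Cell cycle genes had H3K4me3 alone in 9 of 25, with the largest scores at Cdk1, Top2a, Mcm3 and Mcm7, and H3K79Hcy alone in 2, Mcm3 and Ccnd2, a share of 8% that is near that over all genes. Of 25 housekeeping genes, which are active in nearly all cells, none had a start inside a peak of any group, and 3 (Eef2, Rplp0 and Ppia) had H3K4me3 alone in the gene. Olfactory receptor genes, which are expressed mainly in olfactory neurons, had H3K4me3 alone in 45 of 1113 (4.04%), with 23 at the start (2.07%). Most of these 23 lay in a single stretch of chromosome 11, from Olfr1 (chr11:73211801-73214600) to Olfr412 (chr11:74178001-74179600), so the count is not spread over the family. Olfactory receptor genes had H3K79Hcy alone in 10 (0.898%). Their median length was 0.96 kb, against 15.4 kb over all genes, and short genes offer less room for a peak.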

How the data were processed

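According to the methods, the authors used Bowtie 2 for alignment to mm9 and MACS (1.4.2 in the labels) for peak calling, with filtering against input, while a figure legend names SICER. They deposited for each peak its position and length in bp, the count of reads in it, not normalized, and a score. The deposited score of a peak of 1 window is minus the natural log of a Poisson term, from which the background of each library was solved. No control column holds values, and pooling is not stated.

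Positions are given in mm9, counted from 1. Base composition came from the NCBIM37 genome, which is this build, and genes from GENCODE M1 (22380 protein-coding). A promoter was the 2000 bp upstream of a start. Repeated words were 31-base words of the central 200 bp found more than once in the genome.

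Members, gene lists and alternatives were chosen with earlier results of these data known. Genes named were those with the 5 largest folds per set, the 6 with most peaks per group, the 10 peaks of largest score at starts, the genes of the study, and up to 4 list members of largest score; others are listed as complete counts or are said to be picked later. Some items that these rules would name are not reported here. Functions were tested on simulated data. Python 3.11.15, numpy 2.4.6, pandas 2.3.3 and scipy 1.17.1 were used. With 1 library per antibody, no p-value was computed. Alternatives were a stricter score, a shared length of 50% of a peak or more, sharing within 1000 bp, KHcy overlaps kept, starts of all 37310 annotated genes and bins of 500 kb. Added after seeing the data were partners removed for KHcy counted as shared and bins of 1 Mb holding both unshared groups.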

Additional observations from a re-analysis of the deposited data

How the results depend on the processing

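Each of 16 contrasts between groups was tried under 4 to 6 alternatives. All kept their direction, except that H3K4me3 alone no longer covered starts more often than shared H3K4me3 when peaks touching KHcy were kept. Sharing within 1000 bp was tried only for the overlap shares. The width of shared H3K4me3 against H3K4me3 alone, 2000 against 1800 bp, was not among the 16. It was 2200 against 2200 bp with the stricter score and turned to 1600 against 1800 bp with an overlap of at least 50%. The score at which each list begins limits the depth of comparison, and total reads are unknown. The stricter score was set from the lowest score of each list, so it did not give the lists a common cut-off. No paired analysis was possible because there is 1 library per antibody. Values that moved are given in the order H3K79Hcy alone, H3K79Hcy shared, H3K4me3 shared and H3K4me3 alone, as far as they moved. With a score above the lowest by the natural log of 100, the shared shares were 9.98% of H3K79Hcy and 1.66% of H3K4me3 peaks over 176 loci, with median folds of 2.87 and 2.91. Widths were then 1400, 1400, 2200 and 2200 bp, reads per 200 bp 4.25, 4.57, 4.02 and 3.67, scores 21.3, 22.8, 37.0 and 30.5, and bins with a peak 25.9, 4.49, 4.49 and 50.5%. Genes with a peak numbered 515, 50, 55 and 2754, and peaks with repeated words made up 2.37, 17.4, 19.4 and 5.15%. GC content was 39.9% in H3K79Hcy alone, and H3K4me3 alone covered starts in 6.88% at a median of 36.3 kb. With KHcy overlaps kept, the shared shares were 15.4% and 5.19% over 967 loci, with folds of 3.10 and 3.10. The shared groups then had reads of 4.97 and 4.14, scores of 20.6 and 37.1, bins of 14.6 and 14.6%, starts covered in 3.78 and 6.08%, distances of 27.0 and 28.0 kb, 257 and 269 genes, and repeated words in 18.9 and 21.6%, with a GC content of 41.9% in H3K4me3. With an overlap of at least 50% of the peak, the shares were 7.06% and 1.27% over 221 loci, the bins 9.55 and 5.36%, and shared H3K4me3 had a width of 1600 bp, 4 reads per 200 bp, a score of 24.8, 60 genes, repeated words in 20% and a fold of 2.90. Peaks within 1000 bp gave 11.2% and 4.22%. Counting partners removed for KHcy gave 9.31% for H3K79Hcy. With the starts of all annotated genes, distances were 40.6, 20.8, 20.6 and 20.8 kb, and starts were covered in 1.12% of H3K79Hcy alone, 5.88% of H3K4me3 shared and 7.06% of H3K4me3 alone. Bins of 500 kb held a peak in 38.1, 6.13, 6.11 and 50.2%. In bins of 1 Mb with both unshared groups, distances were 68.8 kb for H3K79Hcy alone and 28.1 kb for H3K4me3 alone, GC content 40.5% for the former, CpG 0.192 and starts covered 6.27% for the latter. The cause of these shifts was not tested beyond the smaller or larger number of peaks. Leaving out peaks of fold over 5 moved none of 4 values.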
